A study of Homo sapiens with 6 samples.

Results

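The ERBB family was examined in OVCAR8, an established human cell line of ovarian carcinoma, after treatment with relaxin-2 (RLN2), a peptide hormone of the insulin superfamily. The 10 genes described are the 4 receptors EGFR, ERBB2, ERBB3 and ERBB4 and the 6 ligands AREG, EREG, HBEGF, TGFA, BTC and NRG1, taken by symbol from the authors' merged count table, out of 58037 genes in the library tables. The RLN2 group held 3 libraries, replicates 1, 2 and 3, from cells given 50 ng/mL of recombinant human RLN2 for 8 hours. The untreated group held 3 libraries, replicates 2, 3 and 4, from cells given no hormone. Both groups were plated in medium with 10% serum and kept without serum for 16 hours beforehand, so every value below is from serum-starved cells of 1 line. Total RNA was sequenced with a stranded kit, and reads assigned to genes ran from 11939148 to 21926212 in the RLN2 libraries and from 17175308 to 22426768 in the untreated libraries. RLN2 replicate 2 stood apart with 27.0% of its reads mapping to several places, against 5.31% to 6.19% in the other libraries, and untreated replicate 2 with low values of GC-rich genes. Fold changes without untreated replicate 2, or both libraries numbered 2, were compared for the members and 2 genes of each pathway list below. Where such a printed value moved by over 1.5 times, the value without them stands beside it. The fold changes of ADAM10, ADAM17, LRIG1, PTPN1 and PTPRJ carry no such value. Whether the triplicates came from separate cultures is not in the labels, and the p-values below may thus reflect technical spread alone.

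ERBB receptors are tyrosine kinases of the cell surface that pair with each other once a ligand binds. EGFR binds AREG, TGFA, HBEGF, EREG and BTC, the neuregulins bind ERBB3 and ERBB4, ERBB2 has no known soluble ligand of its own and serves as partner, and ERBB3 has a kinase of very low activity and signals through its partners. The ligands are made as membrane proteins and released by proteases of the ADAM family, after which the receptors switch on the RAS to ERK and PI3K to AKT routes. In ovarian carcinoma EGFR and ERBB2 have been studied as drug targets, and NRG1 with ERBB3 as a loop in which cells stimulate themselves.

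AREG, EREG, BTC and a further ligand, EPGN, lie within 486.2 kilobases of chromosome 4 (GRCh38). EREG lies at 74365143 to 74388751 and AREG at 74445134 to 74455009, both on the plus strand. EREG was the member whose groups lay farthest apart in these data, though on 29 reads in all. AREG, its neighbour, is known as a target of cyclic AMP, the second messenger of the main relaxin receptor. Neither gene was called between the groups in the tests below. Their promoters are therefore shown as the 250 bases before the RefSeq start on the plus strand, chr4:74444886-74445135 for AREG and chr4:74364895-74365144 for EREG (RefSeq, GRCh38.p14), with capitals for the motifs searched.

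AREG: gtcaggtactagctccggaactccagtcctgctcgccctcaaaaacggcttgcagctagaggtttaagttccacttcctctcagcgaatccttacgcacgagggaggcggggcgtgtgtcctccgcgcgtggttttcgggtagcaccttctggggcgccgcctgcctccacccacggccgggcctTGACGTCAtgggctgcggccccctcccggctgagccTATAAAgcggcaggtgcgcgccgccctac

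EREG: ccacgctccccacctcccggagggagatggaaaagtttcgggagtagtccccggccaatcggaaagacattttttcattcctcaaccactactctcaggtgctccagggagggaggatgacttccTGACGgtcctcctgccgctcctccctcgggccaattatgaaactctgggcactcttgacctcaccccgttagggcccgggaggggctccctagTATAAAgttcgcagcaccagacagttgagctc

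The capitals mark the cyclic AMP response element TGACGTCA, its shorter core TGACG and the TATA box TATAAA. The element and its core were searched on both strands, where the core reads CGTCA on the opposite one, and the TATA box on the gene's strand, and the core lies inside the element wherever the element is found. AREG held the element 65 bases before the start, and a TATA box 29 bases before it. EREG held the core alone 125 bases before the start, and a TATA box 32 bases before it. Of 35116 windows of this length in the RefSeq table, 1.65% held the element, 21.2% the core and 6.80% the TATA box. Among the windows of the other members, BTC, HBEGF, ERBB2 and ERBB4 held none of these letters, TGFA held the core once, and EGFR held TATAAA 2 times at its second start. No window of ERBB3 or NRG1 was used here. These matches are descriptions of the letters, not sites of binding.

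Cells expressed a receptor set led by EGFR, and a ligand set led by HBEGF and NRG1. Levels are given as CPM, reads scaled to library size after normalization by the trimmed mean of M values (TMM), per kilobase of the union of annotated exons, so that genes can be compared. EGFR averaged 33.7 ± 0.608 CPM per kilobase in RLN2 libraries and 33.1 ± 1.55 in untreated libraries (SD, n = 3 each), above 91.9% of the 16740 genes tested. HBEGF averaged 12.3 ± 0.388 in RLN2 libraries and 12.8 ± 0.880 in untreated libraries. ERBB3 averaged 12.5 ± 0.380 in RLN2 libraries and 11.7 ± 0.832 in untreated libraries. By the union of exons EGFR was thus 2.67 times the next member, HBEGF, over all libraries. NRG1 followed with 7.64 ± 0.480 in RLN2 libraries and 8.32 ± 0.697 in untreated libraries, and ERBB2 with 5.67 ± 0.653 in RLN2 libraries and 3.97 ± 1.35 in untreated libraries. The other ligands were scarcer, and EREG and ERBB4 were near 0. AREG averaged 1.33 ± 0.240 in RLN2 libraries and 1.56 ± 0.105 in untreated libraries. For TGFA the means were 1.12 ± 0.0748 in RLN2 libraries and 1.29 ± 0.225 in untreated libraries, and for BTC 0.806 ± 0.179 in RLN2 libraries and 0.788 ± 0.300 in untreated libraries.

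In this order HBEGF and ERBB3 could not be told apart, since their ranges over the 6 libraries overlapped, and the same held for AREG and TGFA, for TGFA and BTC, and for EREG and ERBB4. TGFA was nevertheless above BTC within each of the 6 libraries. EGFR lay above every other member in each library. Places below EGFR depend on the length used. The NRG1 locus holds 22 annotated transcripts with a mean length of 1523 bases, against a union of exons of 11328 bases. Per kilobase of mean transcript length EGFR was still highest at 139.8 CPM, followed by ERBB3 at 71.8, NRG1 at 59.4 and HBEGF at 27.1. By that length TGFA was at 5.30 and AREG at 2.41. The deposited counts are per gene and do not separate the isoforms of NRG1.

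**Figure D1:**
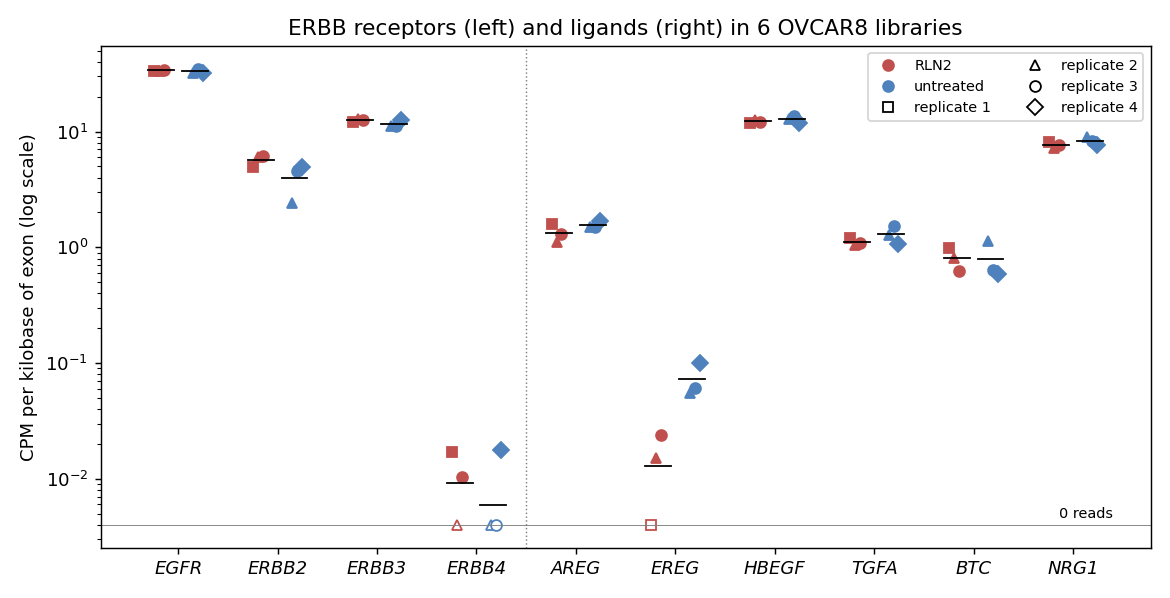
CPM per kilobase of exon, on a log scale, for the 4 receptors and 6 ligands, with RLN2 libraries in red left of untreated libraries in blue, symbols for the replicate numbers, bars for group means and open symbols for libraries with 0 reads. EGFR sits highest in all 6 libraries, EREG is the one member whose RLN2 points all lie below its untreated points, and the untreated replicate 2 point of ERBB2 lies apart at 2.43.

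Summed over the 4 receptors, transcripts per length were 50.2, 52.4 and 53.1 CPM per kilobase in RLN2 replicates 1, 2 and 3, against 45.8, 50.5 and 49.9 in untreated replicates 2, 3 and 4. EGFR made up 64.0% to 66.0% of that sum in RLN2 libraries and 64.8% to 70.1% in untreated libraries, and ERBB3 23.8% to 24.5% in RLN2 libraries and 22.0% to 25.3% in untreated libraries. ERBB2 made up 9.80% to 11.5% in RLN2 libraries and 5.31% to 9.91% in untreated libraries. All 3 shares overlapped between the groups, that of ERBB2 by RLN2 replicate 1 and untreated replicate 4 alone. The 6 ligands summed to 23.8, 22.8 and 22.9 CPM per kilobase in RLN2 libraries, against 25.8, 25.7 and 22.9 in untreated libraries. HBEGF held 50.0% to 55.5% of the ligand sum in RLN2 libraries and 49.7% to 53.0% in untreated libraries, and NRG1 31.4% to 34.2% in RLN2 libraries and 32.6% to 34.9% in untreated libraries. Both shares overlapped between the groups. By mean transcript length the share of HBEGF over all libraries was 28.4%, against 52.2% by the union of exons.

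**Figure D2:**
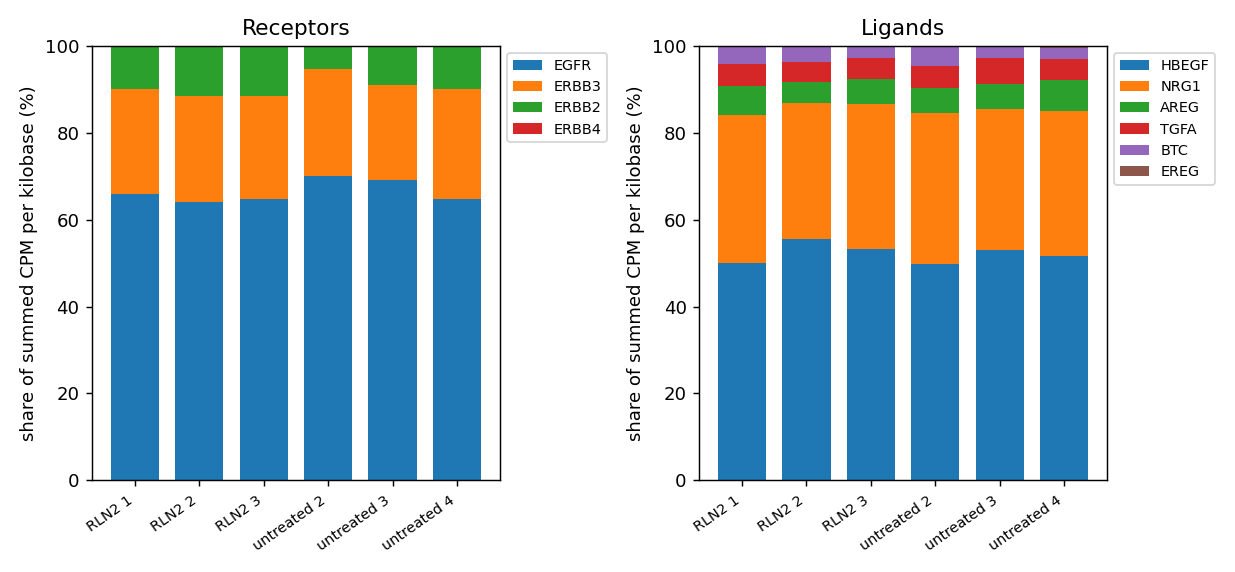
Share of each receptor (left panel) and each ligand (right panel) in the summed CPM per kilobase of its class, in percent, for the 3 RLN2 libraries and then the 3 untreated libraries. EGFR fills 64.0% to 70.1% of every receptor bar and HBEGF with NRG1 most of every ligand bar, and ERBB4 and EREG are too thin to be seen.

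None of the 8 members that passed the filter on low counts was called between RLN2 and untreated cells by edgeR's quasi-likelihood test at a Benjamini-Hochberg adjusted p under 0.05 over all genes. That test called 0% of the 16740 genes, with a smallest adjusted p of 0.408. At an unadjusted p under 0.05 it held 0 of these 8 members and 1811 of all genes, or 10.8%. DESeq2, run on all 10 members, also called 0, with 2 at an unadjusted p under 0.05, against 1744 of 32407 genes. By limma-voom, run after the filter, 0 of the 8 were called, with 1 at that unadjusted p, against 2058 of 16740 genes. Of the 8 members 4 had a log2 fold change above 0, against 47.8% of all tested genes, and their median log2 fold change was -0.02, against -0.01 over all. The RLN2 and untreated libraries overlapped in all 8, while 21.3% of all tested genes had groups that did not overlap. In a cell line sequenced in bulk, fewer cells that express a gene and less RNA per cell cannot be told apart.

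EGFR, the most abundant receptor (chromosome 7, 55019021 to 55211628), had 415, 420.4 and 430.2 CPM in RLN2 replicates 1, 2 and 3, against 402, 437 and 405 CPM in untreated replicates 2, 3 and 4. The untreated libraries enclosed all RLN2 libraries. The log2 fold change was 0.03 ± 0.06 (SE; edgeR adjusted p = 0.837), and its 95% interval in fold terms ran from 0.918 to 1.13. With the offsets on GC content and length that remove each library's trend the value was -0.09. Left out in turn, libraries moved it between 0.00254 and 0.06, with the lower bound reached without untreated replicate 2, and it was 0.01 without both libraries numbered 2.

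ERBB3, the partner with a weak kinase (chromosome 12, 56076799 to 56103505), had 109.6, 116 and 114 CPM in RLN2 libraries, against 102, 100.3 and 114 CPM in untreated libraries. Untreated replicate 4 lay within the RLN2 libraries. Its log2 fold change was 0.11 ± 0.07 (edgeR adjusted p = 0.461), with a 95% interval in fold terms from 0.956 to 1.21. It was 0.07 without untreated replicate 3, 0.17 without untreated replicate 4 and 0.05 with the trend offsets. ERBB3 stood at 36.6%, 38.3% and 36.7% of the EGFR level per length in the 3 RLN2 libraries, against 35.1%, 31.8% and 39.0% in the untreated ones.

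ERBB2, the receptor without a ligand (chromosome 17, 39687914 to 39730426), had the largest fitted difference among the 8 tested members. It had 50.8, 62.0 and 62.9 CPM in RLN2 replicates 1, 2 and 3, against 25.1, 46.9 and 51.1 CPM in untreated replicates 2, 3 and 4. RLN2 replicate 1 lay just below untreated replicate 4, and untreated replicate 2 was far below all others. The fitted log2 fold change was 0.51 ± 0.24 (edgeR adjusted p = 0.408), a fold of 1.43 with a 95% interval from 0.972 to 2.10. Within each library ERBB2 stood at 14.8%, 17.9% and 17.7% of the EGFR level per length in RLN2 libraries, against 7.57%, 13.03% and 15.3% in untreated libraries. Without untreated replicate 2 the log2 fold change was 0.26, and without both libraries numbered 2 it was 0.23.

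ERBB2 transcripts average 59.3% GC, which places it among the most GC-rich of 5 equal classes of tested genes. In that class the median log2 fold change over all genes was 0.45, and the median deviation from a gene's mean was 0.05, 0.36 and 0.27 in RLN2 replicates 1, 2 and 3, against -0.70, -0.03 and 0.08 in untreated replicates 2, 3 and 4. In the class lowest in GC the median log2 fold change was -0.17. ERBB2, like the median of that class, was lowest in untreated replicate 2 and highest in RLN2 replicates 2 and 3. Fitted with those trend offsets, ERBB2 had a log2 fold change of 0.14, and 1 surrogate variable as a covariate gave 0.06. The part of GC content in the ERBB2 difference was not tested. ERBB2 shares exon positions with MIEN1 and PGAP3 on the other strand, and 3.12% of its reads over both strands were on that strand. The reverse-strand counts used here leave those out.

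**Figure D3:**
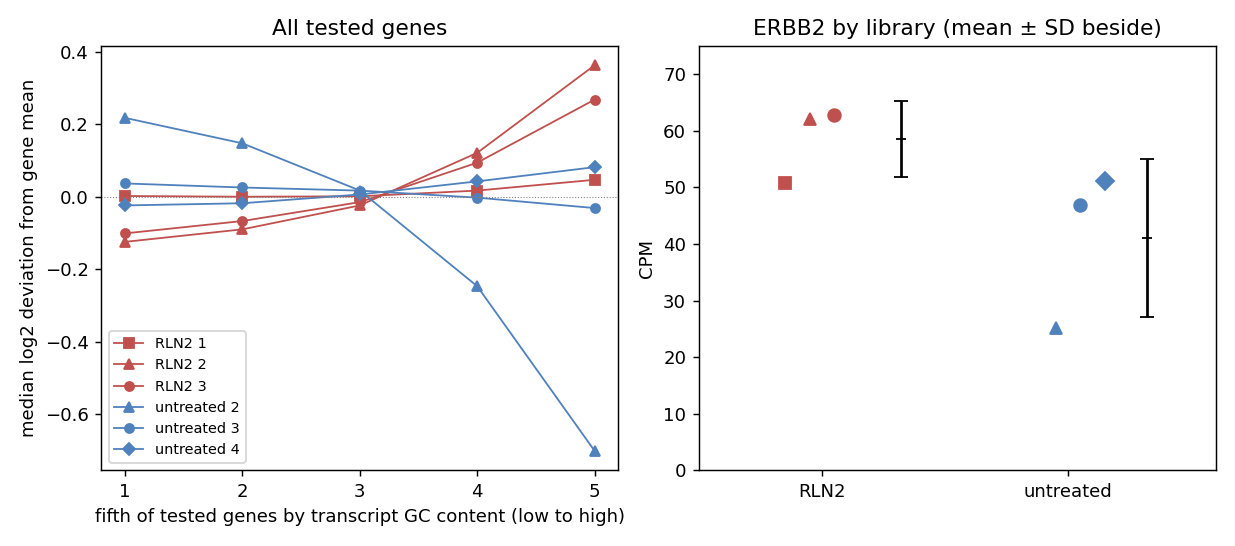
Left, median log2 deviation of tested genes from their mean over the 6 libraries, in 5 equal classes of transcript GC content from low to high, 1 line per library (RLN2 red, untreated blue). Right, ERBB2 in CPM in each library with the group mean ± SD beside, RLN2 left of untreated. Untreated replicate 2 has the lowest median in the most GC-rich class, -0.70, and the lowest ERBB2 value, 25.1 CPM.

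ERBB4, a neuregulin receptor (chromosome 2, 211375717 to 212538841), was at the limit of detection and did not pass the filter. It had 4, 0 and 3 reads in RLN2 replicates 1, 2 and 3, against 0, 0 and 4 reads in untreated replicates 2, 3 and 4. In pooled reads this is 0.136 CPM in the RLN2 group (exact Poisson 95% interval 0.0546 to 0.280) and 0.0641 CPM in the untreated group (0.0175 to 0.164). A library with 0 reads allows up to 0.134 to 0.251 CPM by the floor of 3 counts, depending on its depth. A difference between the groups was not detectable at this depth. These intervals and floors cover counting error only.

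Among the ligands HBEGF, a heparin-binding ligand of EGFR and ERBB4 (chromosome 5, 140332843 to 140346631), had 35.9, 38.3 and 36.9 CPM in RLN2 libraries, against 38.7, 41.0 and 35.7 CPM in untreated libraries. All RLN2 values lay inside the untreated range. The log2 fold change was -0.06 ± 0.09 (edgeR adjusted p = 0.726), with a 95% interval in fold terms from 0.833 to 1.11. Leaving out untreated replicate 3 gave -0.00946, leaving out untreated replicate 4 gave -0.11, and the trend offsets gave -0.01. NRG1, a neuregulin that binds ERBB3 and ERBB4 (chromosome 8), had 92.1, 81.2 and 86.4 CPM in RLN2 libraries, against 102, 94.8 and 86.1 CPM in untreated libraries. Untreated replicate 4 lay among the RLN2 values and untreated replicates 2 and 3 above them. Its log2 fold change was -0.12 ± 0.09 (edgeR adjusted p = 0.464), with a 95% interval in fold terms from 0.800 to 1.06. It was -0.08 without RLN2 replicate 2, -0.06 without untreated replicate 2, -0.01 without both and -0.07 with the trend offsets.

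The 3 less abundant ligands that passed the filter rest on 21 to 173 reads a library. TGFA, a ligand of EGFR (chromosome 2, 70447280 to 70554193), had 107, 60 and 120 reads in RLN2 libraries (5.94, 5.22 and 5.45 CPM), against 141, 173 and 93 reads in untreated libraries (6.34, 7.58 and 5.35 CPM). Untreated replicate 4 fell among the RLN2 values. The fitted log2 fold change was -0.22 ± 0.17 (edgeR adjusted p = 0.493), and it was -0.54 with the trend offsets, -0.08 when untreated replicate 3 was left out and -0.33 when untreated replicate 4 was left out. AREG, an EGFR ligand that many epithelial cells make for their own use, had 47, 21 and 47 reads in RLN2 libraries (2.61, 1.83 and 2.13 CPM), against 55, 56 and 48 in untreated libraries (2.47, 2.45 and 2.76 CPM). RLN2 replicate 1 lay within the untreated values and the other RLN2 libraries below them. The log2 fold change of AREG was -0.21 ± 0.19 (edgeR adjusted p = 0.547), against -0.05 with the offsets. It was -0.35 without RLN2 replicate 1, -0.11 without RLN2 replicate 2 and -0.13 when both libraries numbered 2 were left out, and a block on the replicate number gave -0.31.

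BTC, a ligand of EGFR and ERBB4 (chromosome 4, 74744759 to 74794686), had 50, 26 and 39 reads in RLN2 libraries (2.78, 2.26 and 1.77 CPM), against 71, 41 and 29 in untreated libraries (3.19, 1.80 and 1.67 CPM). Untreated replicate 2 was the highest of all and the other untreated libraries were near the lowest RLN2 library. The log2 fold change was 0.01 ± 0.30 (edgeR adjusted p = 0.986), and it was 0.37 both without untreated replicate 2 and without both libraries numbered 2, against -0.18, -0.13 and -0.14 without RLN2 replicate 1, untreated replicate 3 and untreated replicate 4. With the trend offsets BTC was at 0.18. The interval of BTC in fold terms, 0.621 to 1.64, is the widest among the 5 tested ligands.

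**Figure D4:**
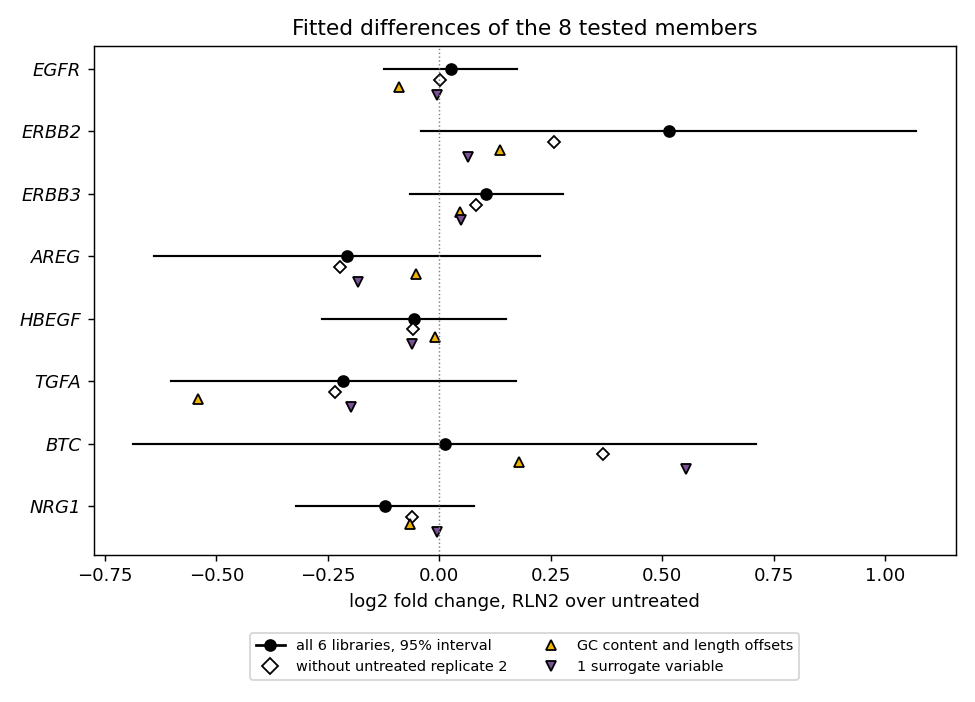
Log2 fold change of RLN2 over untreated cells for the 8 tested members, with black points and lines for the fit on all 6 libraries and its 95% interval, and smaller symbols for the fit that leaves out untreated replicate 2, the fit with offsets on GC content and length, and the fit with 1 surrogate variable. Every interval crosses 0, and ERBB2 stands at 0.51 with all libraries and at 0.26, 0.14 and 0.06 in the other fits.

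EREG, a ligand of EGFR and ERBB4, was lower in every RLN2 library than in any untreated library, at very low counts. It had 0, 1 and 3 reads in RLN2 replicates 1, 2 and 3 (0, 0.0870 and 0.136 CPM), against 7, 8 and 10 reads in untreated replicates 2, 3 and 4 (0.315, 0.350 and 0.576 CPM). The groups did not overlap. On the lower side this held for 7.08% of the 32407 genes with any read, and for 10.5% of the 16740 genes that passed the filter. Pooled reads gave 0.0776 CPM in the RLN2 group (exact Poisson 95% interval 0.0212 to 0.199) and 0.400 CPM in the untreated group (0.259 to 0.591), a ratio of 0.194 with an exact counting interval from 0.0490 to 0.562. Such intervals cover counting error only and leave out the spread between libraries. An exact two-sided permutation test over the 6 libraries gave p = 0.1, the smallest that 3 against 3 allows. Groups of this size without overlap always give that value, so it adds nothing to the lack of overlap. EREG did not pass the filter on low counts, and in the edgeR fit without a filter its log2 fold change was -2.29 ± 0.77, with an unadjusted p of 0.00374 and an adjusted p of 0.126. That fit called 0.37% of genes, 0.0154% on the lower side, and none of the 10 members, of which 2 had an unadjusted p under 0.05 against 11.1% of genes. The value lay between -3.33 and -1.47 over the alternatives tried, with adjusted p from 0.0725 to 0.842, being -2.45 when untreated replicate 2 was left out and -2.13 with the trend offsets.

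The ligands outside the 10 were taken as a list of 5. EPGN, a ligand of EGFR next to EREG, had 1, 0 and 1 reads in RLN2 libraries, against 2, 4 and 2 in untreated libraries. These CPM values did not overlap, but the ratio of pooled reads, 0.303, had an exact counting interval from 0.0313 to 1.52. NRG3 had 0 reads in all 6 libraries, and NRG4 had 9 reads in the RLN2 group and 10 in the untreated group. EGF, the founding ligand, had 1.56, 2.35 and 2.00 CPM in RLN2 libraries, against 3.33, 2.32 and 2.65 in untreated libraries (log2 fold change -0.51 ± 0.22, edgeR adjusted p = 0.408). RLN2 replicate 2 lay just above untreated replicate 3. NRG2, a neuregulin, had 1.72, 3.22 and 2.13 CPM in RLN2 libraries, against 1.17, 1.62 and 1.27 in untreated libraries, all RLN2 values above all untreated ones (0.75 ± 0.28, edgeR adjusted p = 0.408). With the trend offsets NRG2 was at 0.15, and without both libraries numbered 2 at 0.42.

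Further genes of the pathway were described as 4 more lists, and with the ligands just given they held 52 genes, of which 49 were tested. In these lists 0 genes passed edgeR's test in either direction, and 7 of the 49 had an unadjusted p under 0.05, against 10.8% of all tested genes. DESeq2, run without the filter, and limma-voom also called 0, with 10 and 7 at an unadjusted p under 0.05. Over all genes that p was reached by 1744 of 32407 in DESeq2 and 2058 of 16740 in limma-voom. Groups did not overlap in 14 of the 49, or 28.6%, against 21.3% of all tested genes. Higher after RLN2 were 11 of the 49, against 1818 of 16740 tested genes (10.9%). Lower were 3 of the 49, against 1754 of 16740 (10.5%). Untreated replicate 2 with its low GC-rich genes enters each such comparison.

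The 8 genes of ligand shedding had 6 log2 fold changes above 0 and 2 below, with a median of 0.21. Groups did not overlap in 3, or 37.5%, all higher after RLN2, against 21.3% of all tested genes in either direction. ADAM17 and ADAM10, the main proteases that release EGFR ligands, were at -0.06 ± 0.07 and -0.09 ± 0.09. ADAM19, a protease able to cleave neuregulins, had 47.3, 50.9 and 51.7 CPM in RLN2 libraries, against 36.7, 43.9 and 44.7 CPM in untreated libraries, without overlap (0.26 ± 0.10). RHBDF2, an inactive rhomboid protein that carries ADAM17 to the surface, had 7.45, 10.9 and 8.90 CPM in RLN2 libraries, against 3.10, 6.35 and 7.20 in untreated libraries, also without overlap (0.71 ± 0.30). Both had an edgeR adjusted p of 0.408. With the trend offsets they were 0.09 and 0.21, and RHBDF2 was 0.41 when untreated replicate 2 was left out. Without both libraries numbered 2 ADAM19 was 0.17 and RHBDF2 0.29.

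The 13 adaptors and effectors had 6 values above 0 and 7 below, with a median of -0.03. Groups did not overlap in 4, or 30.8%, against 21.3% of all tested genes, and of the 4, 3 were higher and 1 lower. GAB1, a docking protein for the receptors, had 39.4, 38.2 and 41.1 CPM in RLN2 libraries, against 49.4, 47.2 and 44.3 in untreated libraries, all RLN2 values below all untreated ones (-0.25 ± 0.08). GRB7, an adaptor next to ERBB2 on chromosome 17, had 2.11, 2.26 and 2.18 CPM in RLN2 libraries, against 0.719, 1.66 and 1.61 in untreated libraries, without overlap (0.72 ± 0.30). Untreated replicate 2 was again the lowest, as for ERBB2. Both had an edgeR adjusted p of 0.408. Trend offsets gave -0.10 for GAB1 and 0.30 for GRB7, which was 0.41 when untreated replicate 2 was left out and 0.39 without both libraries numbered 2.

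The 14 genes that restrain or sort the receptors had 6 values above 0 and 8 below, with a median of -0.06. Groups did not overlap in 5, or 35.7%, against 21.3% of all tested genes, and of the 5, 3 were higher and 2 lower. LRIG2, a membrane protein of the LRIG family, had 114, 107 and 112 CPM in RLN2 libraries, against 129, 126 and 115 in untreated libraries, without overlap (-0.15 ± 0.07). SOCS4, which can promote EGFR breakdown, had 162, 151 and 145 CPM in RLN2 libraries, against 198, 164 and 163 in untreated libraries, also without overlap (-0.20 ± 0.09). Both had an edgeR adjusted p of 0.408. With the offsets they were -0.02 and -0.05. Without untreated replicate 2, which held the highest value of SOCS4, SOCS4 was -0.10, and without both libraries numbered 2 SOCS4 was -0.08 and LRIG2 -0.09. The 3 higher genes were LRIG1, a negative regulator of ERBB receptors, and the tyrosine phosphatases PTPN1 and PTPRJ. LRIG1 had 26.4, 30.1 and 29.5 CPM in RLN2 libraries, against 20.3, 26.0 and 26.2 in untreated libraries (0.25 ± 0.13, edgeR adjusted p = 0.408). PTPN1 was at 0.10 ± 0.06 and PTPRJ at 0.10 ± 0.07, with edgeR adjusted p of 0.439 and 0.474. ERRFI1, the feedback inhibitor of EGFR, had 212, 197 and 211 CPM in RLN2 libraries, against 227, 239 and 209.9 in untreated libraries, and the groups overlapped.

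The 12 transcripts that EGFR to ERK signalling is known to induce had 6 values above 0 and 6 below, with a median of 0.01. Groups did not overlap in 1, MYC, or 8.33%, against 21.3% of all tested genes. FOSL1, an AP-1 subunit, had 70.1, 89.2 and 82.0 CPM in RLN2 libraries, against 43.6, 60.1 and 72.8 in untreated libraries, and RLN2 replicate 1 lay below untreated replicate 4 (0.45 ± 0.18). MYC, a transcription factor of growth genes, had 135, 152 and 154 CPM in RLN2 libraries, against 104, 134 and 129 in untreated libraries, without overlap (0.26 ± 0.11). Both had an edgeR adjusted p of 0.408, and with the offsets FOSL1 was 0.00426 and MYC -0.10. Without untreated replicate 2, the lowest library for both, FOSL1 was 0.28 and MYC 0.16, and without both libraries numbered 2 FOSL1 was 0.21 and MYC 0.15. DUSP6, a phosphatase of ERK taken from the same list, had 16.6, 18.4 and 16.2 CPM in RLN2 libraries, against 18.5, 16.9 and 17.9 in untreated libraries, with overlap.

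**Figure D5:**
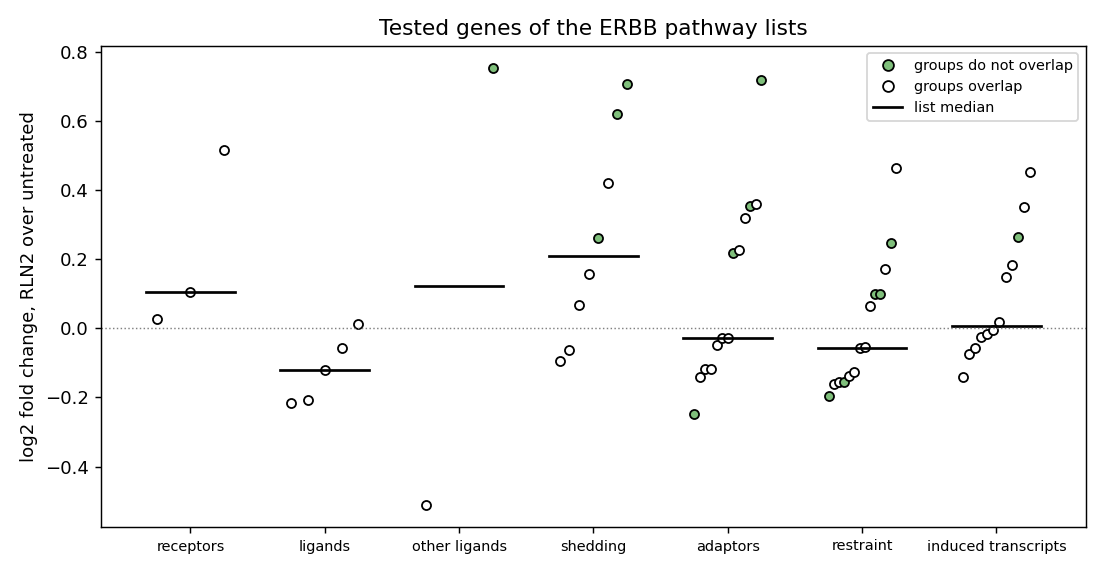
Log2 fold change of RLN2 over untreated cells for each tested receptor, ligand and gene of the 5 pathway lists, filled where the groups do not overlap, with a line at each list's median. Medians run from -0.12 for the 5 tested ligands to 0.21 for the 8 shedding genes, and 0 points are past the test.

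As a description of likeness over 6 libraries, in which all genes share each library's depth and GC trend, the genes whose log2 CPM followed EGFR most closely were HES1 (Pearson r = 0.976), TAX1BP3 (0.975) and ZNF521 (0.975). Those closest to HBEGF were THEM4 (0.992), PGM5P2 (0.975) and ZKSCAN2 (0.963). Among the 12652 genes searched, 43 passed an r of 0.9 with EGFR and 40 with HBEGF. How many would pass by chance over 6 libraries was not tested.

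The labelled cell type was checked on marker lists. Of the 10 epithelial and ovarian carcinoma markers 8 were tested, with a summed level of 2364 to 2870.4 CPM in RLN2 libraries and 1498 to 2563 CPM in untreated libraries. Most of this came from the keratins KRT18 (means 1306 CPM in RLN2 and 1163 in untreated libraries), KRT8 (972 and 704) and KRT7 (259 and 198). PAX8, EPCAM and MSLN had means of 20.9 to 65.6 CPM. WT1 (3.34 and 2.98) and FOLR1 (2.61 and 2.33) were low, and MUC16 and SOX17 were near 0 with 4 and 5 reads in all. The summed fibroblast markers (2 of 6 tested) stood at 18.2 to 19.0 CPM in RLN2 libraries and 10.9 to 19.1 CPM in untreated libraries, mostly from PDGFRB, with DCN at 0. The 5 endothelial markers (3 tested) summed to 2.18 to 3.13 CPM in RLN2 libraries and 1.80 to 2.42 CPM in untreated libraries. Of the 6 leukocyte markers 0 were tested, with sums of 0.389 to 0.696 CPM in RLN2 libraries and 0.405 to 0.748 CPM in untreated libraries, and CD3E was at 0. The part of these markers in the results above was not tested.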

How the data were processed

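RNA was extracted with TRIzol and sequenced as stranded total RNA libraries, per the labels' protocols. The authors deposited raw counts of reads per gene, and the submitters' processing notes name STAR and hg38, with no STAR version or annotation in the sources used here. The reverse-strand counts were used, which held 17.8 to 19.8 times the forward gene reads. The merged table of the authors gave the symbols, and its counts of all 10 members equalled the reverse-strand counts. Unmapped (6.73% to 17.4%), multimapping (5.31% to 27.0%), ambiguous (2.36% to 4.18%) and no-feature reads (17.5% to 32.0%) stayed out of library sizes and tests.

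Genes with low counts were removed by the default filter of edgeR 4.0.16 (R 4.3.3), and the rest were scaled by TMM and compared in 1 fit on all 6 libraries with treatment as the only term. Over the tested genes the standard error of log2 fold changes had a median of 0.16. DESeq2 1.42.0, limma-voom (limma 3.58.1), other scalings and filters, offsets on GC content and length (natural splines with 4 knots) and 1 surrogate variable (sva 3.50.0) were alternatives. Coordinates, lengths and GC content came from GENCODE release 29 on GRCh38, the assembly that hg38 names. The genes named are the 10 members, the 2 of each pathway list with the smallest p, and the 3 closest in pattern to the most abundant receptor and ligand. EPGN, NRG3, NRG4, ADAM10, ADAM17, ERRFI1, LRIG1, PTPN1, PTPRJ and DUSP6 were added after their values were seen. Members, lists and alternatives were chosen with earlier results of these data known. The fit was tested on simulated data. Python 3.11.15, pandas 2.3.3 and matplotlib 3.10.9 were used.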

Additional observations from a re-analysis of the deposited data

How the results depend on the processing

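With each alternative 0 of the members it tested passed the threshold. Neither limma-voom nor the filter of at least 10 counts in every library tested EREG and ERBB4. The number of genes called, 0 as reported, was 120 with no filter on low counts, 14 with 1 surrogate variable, 3 without both libraries numbered 2, 1 with the replicate number as a block and 0 to 3 when each library was left out. The 3 were called without untreated replicate 2. Fold changes kept their sign for ERBB2, ERBB3, AREG, HBEGF, TGFA and NRG1 in all 18 alternatives, and for EREG and ERBB4 in the 15 that could be fitted without a filter. EGFR, close to 0, was -0.0915 with offsets on GC content and length, and -0.00514 when 1 surrogate variable was fitted. BTC was -0.0145 with upper quartile scaling, -0.26 with the replicate block, and between -0.18 and 0.37 when each library was left out, below 0 without RLN2 replicate 1 (-0.18), untreated replicate 3 (-0.13) or untreated replicate 4 (-0.14). MYC was -0.10 with the offsets. The cause was not tested. Left out in turn, libraries moved ERBB2 between 0.26 and 0.70 and EREG between -3.33 and -1.72.

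The replicate numbers 2 and 3 occur in both groups, and the labels do not say that they mark a shared culture or day. For want of such a label, same-numbered libraries were not taken as pairs. Their deviations correlated at -0.33 for number 2 and 0.12 for number 3. Each library's GC trend enters these deviations, so the correlations cannot show whether cultures were shared. With the block ERBB2 was 0.86 (edgeR adjusted p = 0.169).

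Per kilobase of mean transcript length the levels over all libraries were 139.8 CPM for EGFR, 71.8 for ERBB3, 59.4 for NRG1, 27.1 for HBEGF, 22.9 for ERBB2, 5.30 for TGFA, 2.41 for AREG, 1.30 for BTC, 0.112 for EREG and 0.0207 for ERBB4. EGFR then held 59.7% of the receptor sum and HBEGF 28.4% of the ligand sum. Without TMM factors the levels moved by less than 1 SD. Depth limits EREG and ERBB4, which rest on 29 and 11 reads in all.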
